A study of Mus musculus with 30 samples.

Results

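The plasminogen activation and coagulation genes followed here were 7 named genes, *Serpine2*, *Plau*, *Plaur*, *Plat*, *F3*, *Thbd* and *Thbs1*, taken by symbol from the count tables of a mouse study of postoperative ileus, out of 28586 genes listed in all. All 7 were listed in the glial *RiboTag* tables and in the table of total *muscularis externa* (*ME*) RNA. The study asked how enteric glia, the supporting cells of the gut nervous system, respond after intestinal manipulation (IM), in which the small bowel is rolled with moist swabs through an opened abdomen. RNA was taken from unoperated (naïve) mice and 3, 24 or 72 h after IM (IM3h, IM24h and IM72h).

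In *RiboTag* mice, Cre recombinase switches on a tagged ribosomal protein, so that the RNA bound to ribosomes of the Cre-expressing cells can be pulled down from whole tissue. All *RiboTag* libraries came from one cross. In it, animals of B6 Tg(Sox10-icre/ERT2)388Wdr/J, with tamoxifen-induced Cre under *Sox10*, were bred to B6N.129 Rpl22tm1.1Psam/J mice, which carry the tagged ribosomal protein. There were 3 naïve, 4 IM3h, 4 IM24h and 4 IM72h libraries in the tables, where the labels list 4 naïve samples. Total *ME* RNA was the input lysate, with 3 naïve and 3 IM3h libraries from B6.Cg-Tg73.12Mvs/J(Gfap-cre) mice bred to the same B6N.129 Rpl22tm1.1Psam/J mice and 4 IM24h and 4 IM72h libraries from the *Sox10* cross. Mouse line and time point therefore cannot be told apart when *ME* at IM24h or IM72h is set against naïve or IM3h, while *ME* at IM72h against IM24h stayed within the *Sox10* cross. The study's methods describe adult male mice, which had tramadol and isoflurane for the operation, and the labels list no sham-operated libraries. The labels say neither which library came from which mouse nor which *RiboTag* and *ME* libraries share a mouse, so the p-values measure the spread between these libraries.

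Plasminogen is turned into plasmin, which dissolves fibrin and other matrix proteins, by a urokinase-type (*Plau*) and a tissue-type (*Plat*) activator. *Plaur* encodes the cell-surface receptor that holds urokinase at the membrane, and *Serpine2* encodes protease nexin-1, a serpin made by glia among other cells that inhibits thrombin and both activators. Blood clotting begins when tissue factor, encoded by *F3*, binds coagulation factor VII, and thrombomodulin, encoded by *Thbd* and best known on endothelium, turns thrombin from a clotting enzyme into an activator of the anticoagulant protein C. *Thbs1* encodes thrombospondin-1, a matrix protein stored in platelets and made by many injured tissues.

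Total counts per library ran from 3010306 to 7899493 in *RiboTag* and from 6603170 to 12866062 in *ME*. A single feature in a ribosomal RNA gene, AY036118, held 2.0 to 14.0% of the counts in naïve and IM3h *RiboTag* libraries, 22.2 to 59.2% at IM24h and 58.0 to 80.1% at IM72h, so that only 663808 to 1619377 other counts were left in each IM72h *RiboTag* library. In *ME* it held 16.1 to 33.5% in naïve and 24.1 to 25.1% in IM3h libraries, and 1.3 to 6.5% at IM24h and 2.3 to 3.7% at IM72h. Levels are given as CPM, counts relative to a library total scaled within each fraction by the trimmed mean of M-values (TMM), so that CPM are compared neither between fractions nor between genes.

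The 4 glial markers *Sox10*, *S100b*, *Erbb3* and *Gfap* were each called higher in naïve *RiboTag* than in naïve *ME* RNA (log2 fold change 3.26 to 5.76), and 5 of 5 smooth muscle markers lower (-2.12 to -0.81), between naïve libraries of different mouse lines. Among the other lists, 5 of 5 fibroblast, 2 of 4 interstitial cell of Cajal and 1 of 3 platelet markers tested were called lower. Of the neuronal and mesothelial markers, 1 of 5 and 1 of 4 were called higher. For endothelium, macrophages and epithelium, 0 of 5, 0 of 4 and 0 of 4 markers tested were called. In *RiboTag* at IM3h, *Sox10* and *Erbb3* were called lower than in naïve (log2 fold change -0.97 and -1.04) and *Gfap* higher (2.26). At IM24h the 4 summed to 608 to 853 CPM, below all naïve (1250 to 1600 CPM) and all IM3h libraries (1130 to 2520 CPM). Of the 4, edgeR called 0 at IM24h against naïve and 1 lower from IM3h to IM24h. At IM72h, *Sox10*, the gene whose promoter drives Cre here, was at 12, 2.66, 0 and 1.25 CPM, against 485, 1030 and 568 CPM in naïve libraries, and was called lower (edgeR adjusted p = 0.00818). *Gfap* was at 0, 0, 16.5 and 9.39 CPM at IM72h, against 73.2 to 129 CPM in naïve, and *Erbb3* at 0, 34.1, 0.971 and 46.3 CPM, against 64.3 to 97.8 CPM. *Gfap* and *Erbb3* were not called there (edgeR adjusted p = 0.171 and 0.575). *S100b* was at 1030, 102, 770 and 1100 CPM, against 428 to 701 CPM in naïve, with overlapping groups, and made up most of the glial sum at IM72h. 3 of the 4 glial markers were below their naïve range in all IM72h *RiboTag* libraries, and library 2 had the lowest sum of the 4, 139 CPM. The *RiboTag* levels of the 7 genes at IM24h and IM72h stand beside these lower glial marker levels, whose part in them was not tested.

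On mouse build mm10 (GRCm38), the GENCODE annotation places all 7 as protein-coding genes. *Plau* (ENSMUSG00000021822.3) lies at chr14:20836660-20843385 and *Plat* (ENSMUSG00000031538.6) at chr8:22757727-22782844, both on the plus strand. *Plaur* (ENSMUSG00000046223.10) lies at chr7:24462484-24475968 on the plus strand and *Serpine2* (ENSMUSG00000026249.10) at chr1:79794197-79861180 on the minus strand. *F3* (ENSMUSG00000028128.13) lies at chr3:121723537-121735048 on the plus strand, *Thbd* (ENSMUSG00000074743.4) at chr2:148404466-148408188 on the minus strand and *Thbs1* (ENSMUSG00000040152.8) at chr2:118111876-118127133 on the plus strand. The 3′ end libraries read the end of each transcript, so read counts are given per gene and do not tell most of its isoforms apart.

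RefSeq promoter sequence on GRCm38.p6 matched 3 of the 7 genes, *F3*, *Plaur* and *Serpine2*. The 250 bases that end just before the RefSeq start are printed here for these 3 genes, as the ones available. They are chr3:121723287-121723536 on the plus strand for *F3*, chr7:24462233-24462482 on the plus strand for *Plaur* and chr1:79858666-79858915 on the minus strand for *Serpine2*. Each is written 5′ to 3′ on the gene's strand, and capitals mark matches to the motifs searched.
F3: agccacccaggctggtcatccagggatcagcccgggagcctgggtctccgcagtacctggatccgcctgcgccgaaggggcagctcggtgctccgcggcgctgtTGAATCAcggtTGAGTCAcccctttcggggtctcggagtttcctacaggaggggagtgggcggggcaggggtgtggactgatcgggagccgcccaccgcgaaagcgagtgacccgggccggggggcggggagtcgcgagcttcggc
Plaur: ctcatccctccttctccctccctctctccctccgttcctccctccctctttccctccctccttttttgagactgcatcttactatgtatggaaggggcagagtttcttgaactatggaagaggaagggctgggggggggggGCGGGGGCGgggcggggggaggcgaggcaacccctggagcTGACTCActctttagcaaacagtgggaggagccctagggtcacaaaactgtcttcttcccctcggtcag
Serpine2: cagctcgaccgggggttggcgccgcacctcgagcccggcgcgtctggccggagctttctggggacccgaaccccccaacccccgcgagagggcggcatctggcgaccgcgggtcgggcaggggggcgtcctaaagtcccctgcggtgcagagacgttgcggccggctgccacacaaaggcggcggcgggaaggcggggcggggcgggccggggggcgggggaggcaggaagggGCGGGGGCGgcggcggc

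The *F3* window held the AP-1 motif TGANTCA at -146 to -140 and again at -135 to -129, counted back from the RefSeq start, and the *Plaur* window held it at -69 to -63. An AP-1 match was found in 6.7% of 32851 windows of this length. The EGR motif GCGNGGGCG matched at -109 to -101 in *Plaur* and at -17 to -9 in *Serpine2*, against 4.7% of all windows. All motifs were searched on both strands. The 3 windows held no match to the CRE motif TGACGTCA, found in 1.5% of all windows, or to its shorter form TGACG, which lies within it and was found in 17.8%. They held no TATA box, searched as TATAAA and found in 12.4% of all windows. They held no HIF motif, searched as ACGTG and found in 16.6%. A CArG box and an NF-kB site were not matched either, and were found in 1.5% and 3.9% of all windows. Whether any motif goes with the course of these genes was not tested, and 3 windows cannot show it.

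Against naïve glia, 4 of the 7 genes rose at IM3h, *Plaur*, *Thbs1*, *Thbd* and *Plat*, with none lower, where 13.3% of 16053 genes tested were called by edgeR's quasi-likelihood test at a Benjamini-Hochberg adjusted p under 0.05. At IM24h in *RiboTag*, 0 of the 7 were called by edgeR, 3 had an unadjusted p under 0.05 and DESeq2 called 1, where 0.497% of 15304 genes were called. At IM72h in *RiboTag*, 4 of the 7 passed the filter on low counts and 1, *Thbd*, was called lower, where 16.1% of 13572 genes were called. DESeq2 called 6 members at IM3h and 0 at IM72h. When all *RiboTag* groups shared 1 estimate of spread edgeR called 0 at each of IM3h and IM72h, with adjusted p = 0.0672 for *Thbs1* and 1.0 for *Plaur*, *Plat* and *Thbd* at IM3h. The median log2 fold change of the 7 genes was 2.39 at IM3h and 2.24 at IM24h, beside -0.04 and -0.11 over all genes tested, and that of the 4 tested at IM72h was -0.28 beside -0.4.

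In total *ME* RNA, 5 of the 7 rose at IM3h, *Thbs1*, *Plaur*, *Plau*, *Thbd* and *Plat*, where 32.7% of 15333 genes were called. At IM24h, 5 rose and 1 fell, where 29% of 16328 genes were called. At IM72h, 4 rose and 2 fell, where 57.5% of 16592 genes were called. *Plaur* was the only gene of the 7 that edgeR called higher at all 3 times in *ME*, and DESeq2 also called *Plau* at all 3. The median log2 fold change of the 7 was 1.53, 1.49 and 0.67 in turn, beside 0.0, 0.02 and 0.02 over all genes. The lower AY036118 share at IM24h and IM72h stands beside these *ME* changes and those from IM3h to IM24h, several of which were lost or turned sign with plain library totals, as given for each gene. The 5 smooth muscle markers summed to 20900 to 21800 CPM in naïve *ME*, 15800 to 18700 at IM3h, 2850 to 10100 at IM24h and 11100 to 19600 at IM72h, with none at 0. Of the 5, edgeR called 4 lower at IM24h against naïve, 3 lower from IM3h to IM24h and 3 higher from IM24h to IM72h. The part of either shift in the levels of the 7 genes was not tested.

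**Figure D1:**
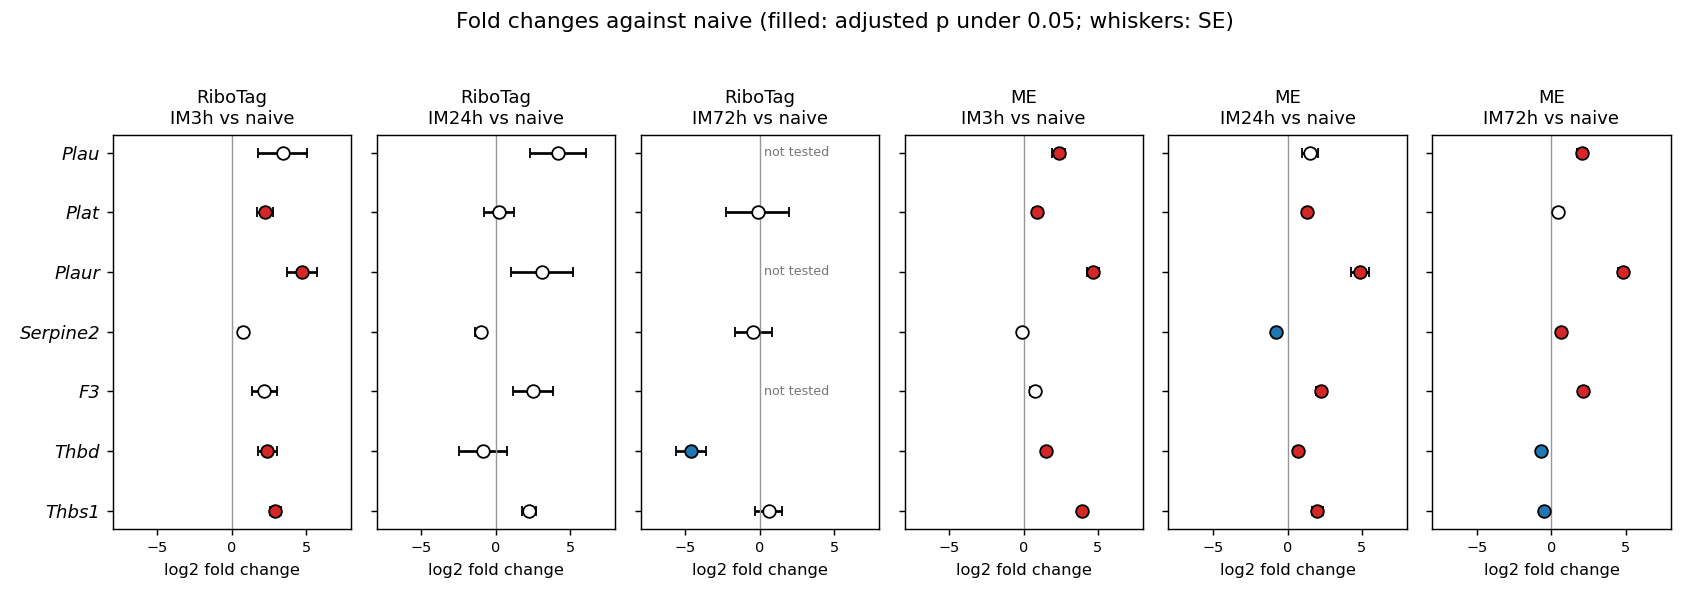
Log2 fold change of each gene against naïve (x axis, edgeR) in 3 *RiboTag* and 3 *ME* comparisons, with whiskers for the SE, filled points for an adjusted p under 0.05 and "not tested" for genes under the count filter. *Plaur* sits between 4.65 and 4.89 in all 3 *ME* panels, while *Thbs1* goes from 3.92 at IM3h to -0.51 at IM72h.

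Between operated groups, 1 of the 7 changed in *RiboTag* from IM3h to IM24h, where 1.84% of 14169 genes were called. From IM24h to IM72h in *RiboTag*, 0 of 5 tested were called by edgeR and 0 by DESeq2, 2 had an unadjusted p under 0.05, and 0% of 9335 genes were called. In *ME*, 1 rose and 3 fell from IM3h to IM24h, where 27.6% of 16199 genes were called, and 1 rose and 3 fell from IM24h to IM72h, where 38.5% of 16281 genes were called. The *ME* changes from IM24h to IM72h are those within the *Sox10* cross.

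*Plau*, the urokinase-type activator, was at 0, 0 and 1.17 CPM in the naïve *RiboTag* libraries, at 3.15, 10.4, 2.55 and 0.373 CPM at IM3h and at 5.15, 4.95, 10.3 and 9.36 CPM at IM24h. All 4 IM24h libraries lay above all naïve libraries, whereas IM3h and naïve overlapped. Neither difference passed the test, with a log2 fold change of 3.42 ± 1.64 (SE, edgeR adjusted p = 0.208) at IM3h and of 4.18 ± 1.9 (SE, edgeR adjusted p = 0.37) at IM24h. The naïve group held 10 counts in library 3 and 0 in the others, and without library 3 the log2 fold change was 8.39 at IM3h and 8.43 at IM24h (edgeR adjusted p = 0.0686 and 0.37), values that depend on the prior count. Without other single libraries it went down to 2.38 at IM3h, without IM3h library 2, and to 3.62 at IM24h. At IM72h the gene was at 0.479, 12.9, 0 and 0 CPM and was not tested.

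In *ME*, *Plau* was at 0.967, 3.01 and 3.27 CPM in naïve libraries and at 10.3, 15.3 and 9.64 CPM at IM3h, 5.11-fold higher (log2 fold change 2.35 ± 0.42, SE, edgeR adjusted p = 0.00197), with no overlap. The IM24h libraries held it at 9.98, 8.01, 4.74 and 4.25 CPM, all above naïve. The log2 fold change of 1.49 ± 0.53 missed the threshold (SE, edgeR adjusted p = 0.0603) and passed it with DESeq2 (adjusted p = 0.0295) and without IM24h library 4 (log2 fold change 1.64, edgeR adjusted p = 0.0341). It also passed with plain totals, no scaling and all *ME* groups in 1 fit (2.12, 2.07 and 1.52, edgeR adjusted p = 0.00807, 0.00812 and 0.00816). With reference genes it was 1.01 (edgeR adjusted p = 0.21), and without naïve library 1 it was 1.09 (edgeR adjusted p = 0.193). At IM72h it was at 9.41, 10.8, 12.2 and 8.06 CPM, 4.19-fold above naïve (edgeR adjusted p = 0.000454). The step from IM24h to IM72h, a log2 fold change of 0.55 ± 0.31, did not pass (SE, edgeR adjusted p = 0.185) except with no scaling (0.97, edgeR adjusted p = 0.0301).

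*Plat*, the tissue-type activator, was at 8.74, 5.85 and 20.3 CPM in naïve *RiboTag* libraries and at 89.1, 58.5, 32.1 and 23.9 CPM at IM3h, 4.67-fold higher (log2 fold change 2.22 ± 0.54, SE, edgeR adjusted p = 0.018), with no overlap. Without naïve library 1 or naïve library 2 the call was lost (log2 fold change 2.02 and 1.92, edgeR adjusted p = 0.0833 and 0.078), as it was with reference genes (1.97, edgeR adjusted p = 0.156), and without naïve library 3 the log2 fold change was 2.96. In the IM24h libraries *Plat* was at 7.42, 32.2, 2.68 and 10.9 CPM, a range that held the naïve one (log2 fold change 0.2 ± 1.01, SE, edgeR adjusted p = 0.964). Its sign turned with plain totals, no scaling and reference genes (-0.9, -0.97 and -1.5), and without IM24h library 2 or naïve library 2 (-0.69 and -0.12). At IM72h *Plat* was at 38.8 CPM in library 1 and at 0, 0.971 and 0 CPM in the others, and without library 1 the log2 fold change against naïve went from -0.14 to -5.28. The latter depends on the prior count, since 1 IM72h count was left.

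In *ME*, *Plat* was called higher than naïve at IM3h and IM24h. It was at 28.4, 19.8 and 26.1 CPM in naïve libraries, at 30.9, 66.0 and 37.1 CPM at IM3h and within 58.7 to 63.3 CPM in the 4 IM24h libraries. The IM24h group was 2.46-fold above naïve (log2 fold change 1.3 ± 0.17, SE, edgeR adjusted p = 0.000518), and the IM3h group was 1.85-fold above naïve (edgeR adjusted p = 0.025). The IM3h call rested on IM3h library 2, without which the log2 fold change was 0.45 (edgeR adjusted p = 0.0957). It was also lost without each of naïve libraries 1, 2 and 3 (log2 fold change 0.95, 0.76 and 0.88, edgeR adjusted p = 0.0527, 0.0806 and 0.0696) and under each other scaling of the libraries (0.46 to 0.71, edgeR adjusted p = 0.123 to 0.185), and with all *ME* groups in 1 fit (0.84, edgeR adjusted p = 0.0643). The IM24h call was lost with reference genes (0.93, edgeR adjusted p = 0.0715). The IM24h and IM3h groups overlapped, with IM3h library 2 above all IM24h libraries, and their difference did not pass (log2 fold change 0.51 ± 0.23, SE, edgeR adjusted p = 0.135). It passed with plain totals (1.3, edgeR adjusted p = 0.00186), with no scaling (1.06, edgeR adjusted p = 0.00848) and without IM3h library 2 (0.89, edgeR adjusted p = 0.0129). From IM24h to IM72h *Plat* fell by 0.83 ± 0.25 on the log2 scale (SE, edgeR adjusted p = 0.0226), to 34.9, 36.5, 52.1 and 18.1 CPM, with no overlap between the groups. Without IM72h library 2 this difference missed the threshold (log2 fold change -0.84, edgeR adjusted p = 0.0536), and with no scaling for library size it was smaller and not called (-0.41, edgeR adjusted p = 0.196). The IM72h group overlapped naïve and was not called (log2 fold change 0.47 ± 0.29, SE, edgeR adjusted p = 0.181). It was called higher with plain totals (1.06, edgeR adjusted p = 0.00929), with no scaling (1.37, edgeR adjusted p = 0.00105) and without IM72h library 4 (0.68, edgeR adjusted p = 0.00889), and its sign turned with reference genes (-0.16).

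*Plaur*, the urokinase receptor, was at 2.03, 0.112 and 0 CPM in naïve *RiboTag* libraries and at 22.1, 25.0, 18.9 and 6.72 CPM at IM3h, 26.6-fold higher (log2 fold change 4.73 ± 1.02, SE, edgeR adjusted p = 0.0103). All 4 IM3h libraries lay above the naïve ones, which held 16, 1 and 0 counts. The fitted log2 fold change ran from 4.15 to 8.08 without single libraries, with an edgeR adjusted p of at most 0.0429. The 8.08 came without naïve library 1, when 1 naïve count was left and the fitted value depends on the prior count. The IM24h levels were 3.14, 0, 2.23 and 13.6 CPM and overlapped the naïve range (log2 fold change 3.13 ± 2.09, SE, edgeR adjusted p = 0.607). This value was 1.72 without IM24h library 4 and 5.95 without naïve library 1. At IM72h all 79 counts were in library 2, at 35.0 CPM, with 0 in the other 3 libraries, and the gene was not tested. All 79 were assigned to the transcript Plaur-204, which held 14.4% of the gene's counts in the IM3h *RiboTag* table and 10.9% in *ME*, where Plaur-201 held 85.6% and 89.1%. Library 2, with the lowest glial sum, had the highest sums of its group for the markers of fibroblasts (1010 CPM), smooth muscle (6680 CPM), macrophages (395 CPM), interstitial cells of Cajal (157 CPM), mesothelium (53.6 CPM) and platelets (13.3 CPM), and its neutrophil sum was 54.1 CPM. Their part in its *Plaur* and *Plau* counts was not tested.

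In *ME*, *Plaur* was at 0.242, 0.431 and 0.605 CPM in naïve libraries. It rose to 10.8, 10.6 and 10.6 CPM at IM3h, 25.0-fold above naïve (log2 fold change 4.65 ± 0.39, SE, edgeR adjusted p = 1.54e-05). It was at 9.7, 17.7, 19.3 and 5.74 CPM at IM24h and at 15.9, 11.9, 11.5 and 11.1 CPM at IM72h, 29.7-fold and 28.2-fold above naïve (edgeR adjusted p = 0.000382 and 1.34e-06). No operated *ME* library overlapped the naïve range, and neither step between operated groups passed the test, with log2 fold changes of 0.33 ± 0.39 and -0.1 ± 0.34 (SE), though the first passed with plain totals (1.14, edgeR adjusted p = 0.0348). Over the same groups the summed level of 5 neutrophil markers was 0.484 to 1.08, 23.1 to 32.3, 43.5 to 198 and 19.3 to 55.5 CPM, and that of 5 macrophage markers was 109 to 112, 82.8 to 98.9, 261 to 345 and 617 to 846 CPM, with none of these markers at 0 in any *ME* group. In bulk RNA, more cells of a type and more RNA per cell cannot be told apart, and the part of these cells in the *Plaur* level was not tested.

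In *RiboTag* the neutrophil markers summed to 0 to 3.17 CPM in naïve and to 2.09 to 9.24 CPM in IM3h libraries, where *S100a8* was not listed and *Retnlg* and *Mmp8* were at 0 in naïve. The macrophage markers, without *Cd68*, which was not listed either, went from 62.4 to 130 CPM in naïve to 46.9 to 102 CPM at IM3h. The naïve and IM3h ranges overlapped for both. At IM24h and IM72h in *RiboTag* the neutrophil sums were 0 to 41.6 and 10.6 to 71.8 CPM, and the macrophage sums 110 to 212 and 178 to 395 CPM, so that all IM72h libraries lay above all naïve ones for both lists. Single macrophage markers went both ways at IM72h, with 1 of 4 tested called higher than naïve and 1 lower. *Cd163* was at 0 in all IM72h *RiboTag* libraries. The 4 mesothelial markers summed to 83.5 to 238 CPM in naïve and 6.93 to 68.1 CPM in IM3h *RiboTag* libraries, and edgeR called 3 of the 4 lower at IM3h. The markers of interstitial cells of Cajal summed to 161 to 225 and 63.3 to 148 CPM, with 1 of 4 called lower. Neither pair of ranges overlapped. Nor did those of the smooth muscle markers (4330 to 6600 and 1680 to 3950 CPM), of which edgeR called 3 of 5 lower. The fibroblast ranges, 447 to 544 and 187 to 289 CPM, were also apart, with 2 of 5 called lower. The part of these cells in the levels of the 7 genes was not tested. Endothelial marker sums overlapped between naïve and IM3h, at 19.3 to 34.7 CPM in naïve and 13 to 31.2 CPM in IM3h *RiboTag* libraries. They were 31.8 to 133 CPM at IM24h and 0 to 78.6 CPM at IM72h, where *Kdr* was at 0 in all libraries, and their part in the *RiboTag* level of *Thbd* was not tested.

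**Figure D2:**
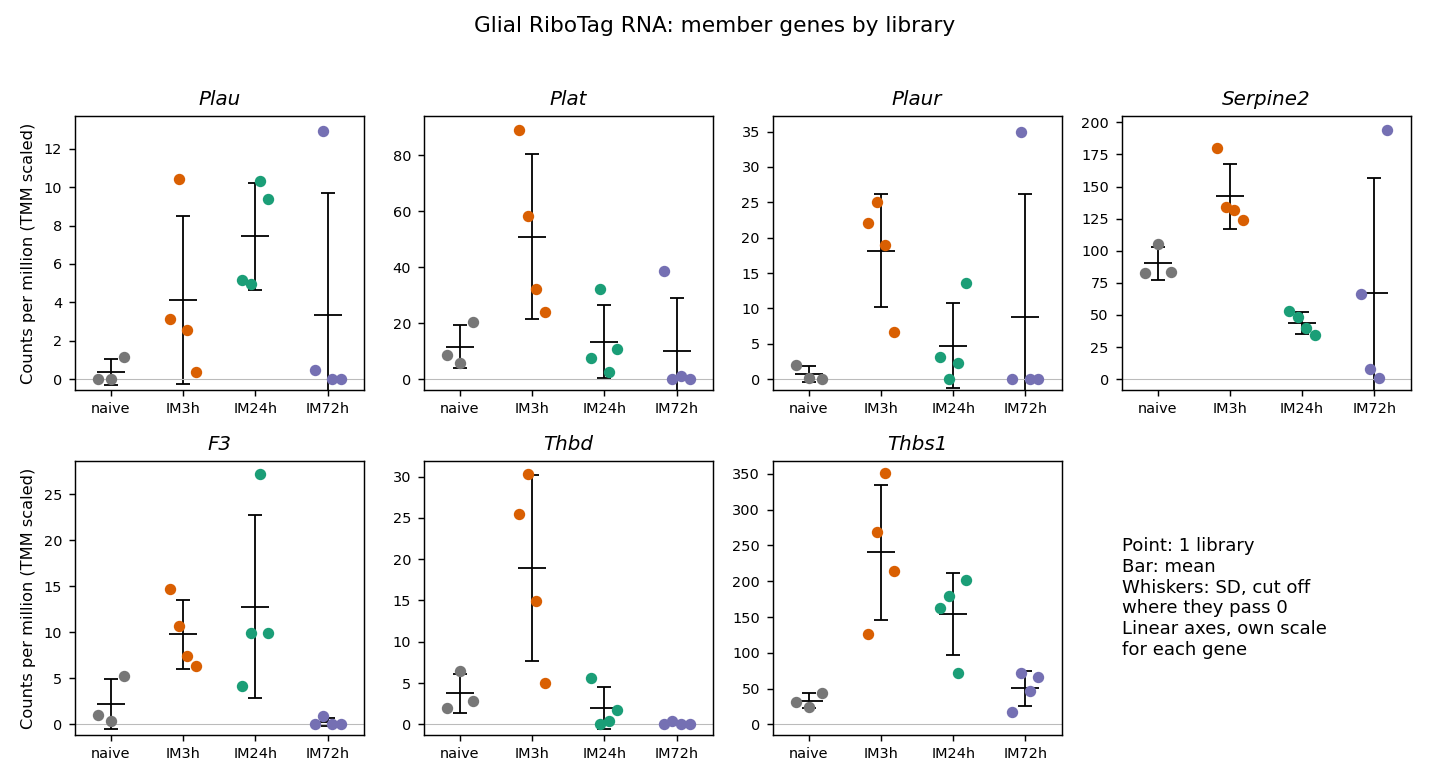
TMM-scaled CPM (y axis, linear, a scale of its own for each gene) of the 7 genes in each *RiboTag* library, by group; points are libraries, bars means and whiskers SD, cut off at 0. The 4 IM3h libraries of *Plaur*, *Plat* and *Thbs1* lie above all naïve ones, and at IM72h single libraries carry most of *Plau*, *Plaur* and *Plat*.

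*Serpine2*, the inhibitor, was called lower at IM24h and higher at IM72h in *ME*, and not called against naïve in *RiboTag*. In *RiboTag* it was at 82.7, 105 and 83.2 CPM in naïve libraries and at 180, 134, 132 and 124 CPM at IM3h, all above naïve. The log2 fold change of 0.72 ± 0.23 missed the threshold (SE, edgeR adjusted p = 0.0636) and passed it with DESeq2 (adjusted p = 0.0167) and without IM3h library 4 (log2 fold change 0.78, edgeR adjusted p = 0.0298), as it did with no scaling (1.03, edgeR adjusted p = 0.0448). With plain totals and reference genes it was 0.52 and 0.33 (edgeR adjusted p = 0.242 and 0.732), and without other single libraries the adjusted p was up to 0.192. By IM24h *Serpine2* was at 53.4, 48.7, 39.7 and 34.2 CPM, all below naïve (log2 fold change -1.02 ± 0.38, SE, edgeR adjusted p = 0.232). From IM3h to IM24h it fell by 1.64 ± 0.32 on the log2 scale (SE, edgeR adjusted p = 0.025), 3.11-fold, with every IM24h library below every IM3h library. This call was lost without each of 5 of the 8 libraries, IM24h libraries 2 and 4 (log2 fold change -1.69 and -1.53, edgeR adjusted p = 0.0605 and 0.0711) and IM3h libraries 1, 2 and 3 (-1.51, -1.67 and -1.67, edgeR adjusted p = 0.097, 0.0899 and 0.0864). It was also lost with plain totals, reference genes and all *RiboTag* groups in 1 fit (-2.42, -2.74 and -1.63, edgeR adjusted p = 0.0593, 0.111 and 0.732). The 4 glial markers in *RiboTag* summed to 1130 to 2520 CPM at IM3h and 608 to 853 CPM at IM24h, and their part in this fall was not tested. At IM72h *Serpine2* spread from 0.971 to 194 CPM, with 66.5 and 7.98 CPM between, wider than any other *RiboTag* group of this gene.

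In *ME*, *Serpine2* was at 61.4, 71.2 and 56.7 CPM in naïve and at 61.0, 60.7 and 50.2 CPM in IM3h libraries, which overlapped (log2 fold change -0.09 ± 0.14, SE, edgeR adjusted p = 0.67). With reference genes this difference was called lower (-0.48, edgeR adjusted p = 0.0152). At IM24h it fell by 0.78 ± 0.18 on the log2 scale (SE, edgeR adjusted p = 0.00954), to 42.7, 30.8, 30.7 and 42.5 CPM, all below naïve. This call was lost with plain library totals (log2 fold change -0.13, edgeR adjusted p = 0.612) and with no scaling (-0.25, edgeR adjusted p = 0.614). At IM72h it was at 131, 90.4, 96.4 and 90.0 CPM, 1.59-fold above naïve (edgeR adjusted p = 0.00394) and 2.72-fold above IM24h (log2 fold change 1.44 ± 0.18, SE, edgeR adjusted p = 0.000186). The 3 groups after IM thus held separate ranges, low at IM24h and high at IM72h. The fall from IM3h to IM24h (log2 fold change -0.6 ± 0.19, SE, edgeR adjusted p = 0.0357) was lost without each of IM24h libraries 2 and 3 and IM3h libraries 1, 2 and 3 (log2 fold change -0.56, -0.54, -0.54, -0.57 and -0.69, edgeR adjusted p = 0.0537, 0.0786, 0.128, 0.116 and 0.058). With plain library totals its sign turned (0.19, edgeR adjusted p = 0.431), and it was lost with no scaling (-0.06, edgeR adjusted p = 0.854) and reference genes (-0.63, edgeR adjusted p = 0.234). The rise against naïve at IM72h was not seen when libraries were scaled by 3 reference genes (log2 fold change 0.04, edgeR adjusted p = 0.796). Glial marker sums in *ME* were 73.6 to 79.5 CPM in naïve, 92.8 to 113 CPM at IM3h, 63.9 to 97.3 CPM at IM24h and 80.3 to 198 CPM at IM72h, and fibroblast marker sums 1790 to 1890, 1020 to 1130, 874 to 1970 and 2980 to 3470 CPM in turn, with none of the markers at 0. Single markers did not all follow these sums. Among the 4 glial markers in *ME*, edgeR called 2 above naïve and 1 below it at IM3h. This split was 1 and 1 at IM24h, then 2 and 1 at IM72h. Of the 5 fibroblast markers, 0 were called above naïve and 3 below it at IM3h. Their split was 1 and 2 at IM24h, then 2 and 1 at IM72h. The part of glia and fibroblasts in the *Serpine2* level was not tested.

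*F3*, tissue factor, was at 1.01, 0.337 and 5.29 CPM in naïve *RiboTag* libraries and at 14.7, 10.7, 7.41 and 6.34 CPM at IM3h, all above naïve. The log2 fold change of 2.19 ± 0.85 missed the threshold (SE, edgeR adjusted p = 0.115) and passed it with DESeq2 (adjusted p = 0.046) and without naïve library 3, the highest naïve one (log2 fold change 3.9, edgeR adjusted p = 0.0253). It was 1.69 without naïve library 2, and the adjusted p was up to 0.266 without other single libraries. At IM24h *F3* was at 4.15, 9.9, 27.2 and 9.93 CPM (log2 fold change 2.5 ± 1.36, SE, edgeR adjusted p = 0.482), a value of 1.86 without IM24h library 3 and of 4.21 without naïve library 3. At IM72h the 4 libraries held 2 counts in all, at 0, 0.887, 0 and 0 CPM. Summed counts per scaled total were 7.72 times higher in naïve than at IM72h (exact 95% interval 2.04 to 65.3, counting error only), and the gene fell under the filter there. Naïve library 3 held 45 of the 56 naïve counts, and without it the ratio was 2.28, with an interval that reached below 1 (0.498 to 21.2). Against IM24h, every IM72h library lay below every IM24h one, and the 170 counts of the IM24h group gave a ratio of 33.2 (9.05 to 276). Without single IM24h libraries it ran from 24.3 to 48.2, with a lower bound of at least 6.58. The fitted log2 fold change was -5.44 ± 2.08 (SE), with an unadjusted p of 0.0157 and an adjusted p of 0.461 (edgeR). Its size depends on the prior count, since both IM72h counts were in library 2. Without that library it was -8.3.

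In *ME* the *F3* level was called higher only at the 2 later times. It was at 11.1, 16.4 and 10.5 CPM in naïve libraries and at 16.3, 33.1 and 11.8 CPM at IM3h, which overlapped (log2 fold change 0.76 ± 0.35, SE, edgeR adjusted p = 0.124), though without IM3h library 3 the difference passed (1.03, edgeR adjusted p = 0.0368). Without IM3h library 2, the one at 33.1 CPM, it was 0.19 (edgeR adjusted p = 0.652). At IM24h it was at 75.6, 65.3, 64.6 and 31.6 CPM and at IM72h at 90.0, 43.3, 61.1 and 32.3 CPM, all above naïve. These groups were 4.72-fold and 4.45-fold above naïve (log2 fold change 2.24 ± 0.31 and 2.15 ± 0.33, SE, edgeR adjusted p = 0.000616 and 0.000259). From IM3h to IM24h *F3* rose 2.98-fold (edgeR adjusted p = 0.0115), with IM24h library 4 within the IM3h range, a call lost without IM3h library 1 (log2 fold change 1.45, edgeR adjusted p = 0.0529), and from IM24h to IM72h it differed by -0.1 ± 0.33 on the log2 scale (SE).

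*Thbd*, thrombomodulin, was at 2.03, 6.41 and 2.82 CPM in naïve *RiboTag* libraries and at 25.5, 30.3, 14.9 and 5.04 CPM at IM3h, 5.23-fold higher (log2 fold change 2.39 ± 0.65, SE, edgeR adjusted p = 0.0312). IM3h library 4 lay within the naïve range, and the call was lost without each of IM3h libraries 1, 2 and 3 (log2 fold change 2.23, 2.06 and 2.48, edgeR adjusted p = 0.0732, 0.102 and 0.0585) and naïve libraries 1 and 3 (2.09 and 2.23, edgeR adjusted p = 0.111 and 0.121). It was also lost with plain totals (2.21, edgeR adjusted p = 0.0659) and reference genes (2.06, edgeR adjusted p = 0.203), and without naïve library 2 the log2 fold change was 3.02. The IM24h levels were 5.66, 0, 0.446 and 1.72 CPM (log2 fold change -0.85 ± 1.64, SE, edgeR adjusted p = 0.892), and -2.26 without IM24h library 1. Against IM3h they overlapped and were not called by edgeR (log2 fold change -3.1 ± 1.15, SE, edgeR adjusted p = 0.205) but were by DESeq2 (-3.13, adjusted p = 0.0299). Without single libraries the edgeR value ran from -4.48, without IM24h library 1, to -2.72, without IM24h library 2. At IM72h the 4 libraries held 1 count in all, at 0, 0.443, 0 and 0 CPM, against 97 counts in the 3 naïve ones. Summed counts per scaled total were 26.7 times higher in naïve than at IM72h (exact 95% interval 4.69 to 1070, counting error only), and 17.0 times without naïve library 2 (2.88 to 688). Against IM24h, with 55 counts, the ratio was 21.5 (3.7 to 864), and without IM24h library 1, which held 45 of them, it was 7.04 (1.0 to 306). The edgeR test called the gene lower (adjusted p = 0.0151) while DESeq2 did not (adjusted p = 0.102), nor did edgeR without the count filter (adjusted p = 0.175) or with all *RiboTag* groups in 1 fit (adjusted p = 0.0946). The fitted log2 fold change of -4.59 ran from -7.26, without IM72h library 2, to -3.91 without single libraries, and was called in each (edgeR adjusted p of at most 0.0392). Its size depends on the prior count, since the IM72h group held 1 count, which was in library 2.

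In *ME*, *Thbd* went up early and ended low. It was at 18.0, 16.4 and 22.9 CPM in naïve libraries and at 57.2, 47.4 and 56.4 CPM at IM3h, 2.89-fold higher (log2 fold change 1.53 ± 0.16, SE, edgeR adjusted p = 7.43e-05), with no overlap. By IM24h it was at 24.2, 25.8, 35.2 and 38.9 CPM, all above naïve (log2 fold change 0.69 ± 0.23, SE, edgeR adjusted p = 0.0471). This call was lost without each of IM24h libraries 3 and 4 and naïve libraries 1, 2 and 3 (log2 fold change 0.62, 0.55, 0.65, 0.59 and 0.85, edgeR adjusted p = 0.108, 0.0722, 0.154, 0.157 and 0.0586). It was lost too with reference genes (0.39, edgeR adjusted p = 0.544) and without the count filter (0.66, edgeR adjusted p = 0.069). At IM72h it was at 8.4, 12.9, 10.9 and 16.4 CPM, where library 4 reached the naïve range. It fell 2.61-fold from IM24h to IM72h (log2 fold change -1.38 ± 0.24, SE, edgeR adjusted p = 0.00107), with no overlap and in every setting tried.

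The fall of *Thbd* in *ME* from naïve to IM72h (log2 fold change -0.68 ± 0.22, SE, edgeR adjusted p = 0.0209) was lost without IM72h library 3 (-0.63, edgeR adjusted p = 0.0521) or naïve library 3 (-0.53, edgeR adjusted p = 0.104). It was lost with plain totals (-0.1, edgeR adjusted p = 0.739) and turned sign without scaling (0.27, edgeR adjusted p = 0.493). Its fall from IM3h to IM24h (log2 fold change -0.75 ± 0.21, SE, edgeR adjusted p = 0.0219) was lost without IM3h library 1 or 3 (-0.69 and -0.72, edgeR adjusted p = 0.0853 and 0.0795) and turned sign with plain library totals (0.06, edgeR adjusted p = 0.844), and was lost with no scaling (-0.2, edgeR adjusted p = 0.502) and reference genes (-0.74, edgeR adjusted p = 0.229). Endothelial marker sums in *ME*, over *Pecam1*, *Cdh5*, *Kdr*, *Tie1* and *Emcn*, were 30.8 to 33.0 CPM in naïve, 40.0 to 50.5 at IM3h, 48.5 to 70.9 at IM24h and 69.7 to 85.0 at IM72h, none at 0. All IM72h endothelial sums were thus above all naïve ones, and their part in the *Thbd* level was not tested.

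*Thbs1*, thrombospondin-1, was the member with the smallest adjusted p at IM3h in each fraction. In *RiboTag* it was at 31.3, 23.6 and 44.2 CPM in naïve libraries and at 126, 269, 351 and 215 CPM at IM3h, 7.58-fold higher (log2 fold change 2.92 ± 0.38, SE, edgeR adjusted p = 0.000552), with no overlap. At IM24h it was at 163, 180, 71.9 and 202 CPM, all above naïve. The IM24h difference, a log2 fold change of 2.24 ± 0.46, missed the threshold (SE, edgeR adjusted p = 0.0517) and passed it with DESeq2 (adjusted p = 0.000527), without IM24h library 1 (2.21, edgeR adjusted p = 0.0335) and without IM24h library 3, the lowest of the group (2.49, edgeR adjusted p = 0.0322), as well as without the count filter (2.2, edgeR adjusted p = 0.028). It was further from the threshold without each other library, with an adjusted p of up to 0.291 without naïve library 2, and with all *RiboTag* groups in 1 fit (0.167). With plain totals, no scaling and reference genes the log2 fold change was 1.42, 1.41 and 0.85 (edgeR adjusted p = 0.437, 0.558 and 0.505). At IM72h it was at 17.2, 71.4, 46.6 and 65.7 CPM, a range that held the naïve one (log2 fold change 0.6 ± 0.88, SE, edgeR adjusted p = 0.838), and all 4 lay below the IM24h libraries (log2 fold change -1.58 ± 0.69, SE, edgeR adjusted p = 0.654).

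In *ME*, *Thbs1* peaked at IM3h and was back at or under the naïve level by IM72h. It was at 47.9, 55.3 and 58.0 CPM in naïve libraries and at 766, 772 and 824 CPM at IM3h, 15.2-fold higher (log2 fold change 3.92 ± 0.13, SE, edgeR adjusted p = 9.04e-08). At IM24h it was at 228, 201, 347 and 90.8 CPM, 4.01-fold above naïve (edgeR adjusted p = 0.00283), and at IM72h at 46.4, 26.9, 35.2 and 46.0 CPM, all below naïve. It fell by 1.83 ± 0.34 on the log2 scale from IM3h to IM24h (SE, edgeR adjusted p = 0.00336). It fell by 2.52 ± 0.35 from IM24h to IM72h (SE, edgeR adjusted p = 0.000329). Both falls came with no overlap and were called in every setting tried.

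The IM72h level of *Thbs1* in *ME* was called lower than naïve (log2 fold change -0.51 ± 0.18, SE, edgeR adjusted p = 0.0344). The call was lost without each of IM72h libraries 2 and 3 and naïve libraries 2 and 3 (log2 fold change -0.36, -0.46, -0.48 and -0.44, edgeR adjusted p = 0.0767, 0.0909, 0.0852 and 0.11). Its sign turned with plain library totals (0.1, edgeR adjusted p = 0.693) and without scaling (0.46, edgeR adjusted p = 0.18). It was lost without the count filter (-0.4, edgeR adjusted p = 0.0739) and with all *ME* groups in 1 fit (-0.51, edgeR adjusted p = 0.195). Platelet and megakaryocyte marker sums in *ME*, over 4 of 5 markers since *Gp9* was not listed, were 38.1 to 50 CPM in naïve, 44.9 to 86.4 at IM3h, 104 to 199 at IM24h and 123 to 154 at IM72h. These sums cross the change of mouse line between IM3h and IM24h, and their part in the *Thbs1* level was not tested. In *RiboTag* these markers summed to 9.37 to 45.0 CPM in naïve and 16.6 to 82.1 CPM at IM3h, over 3 of 5 markers, with *Ppbp* and *Gp9* not listed.

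**Figure D3:**
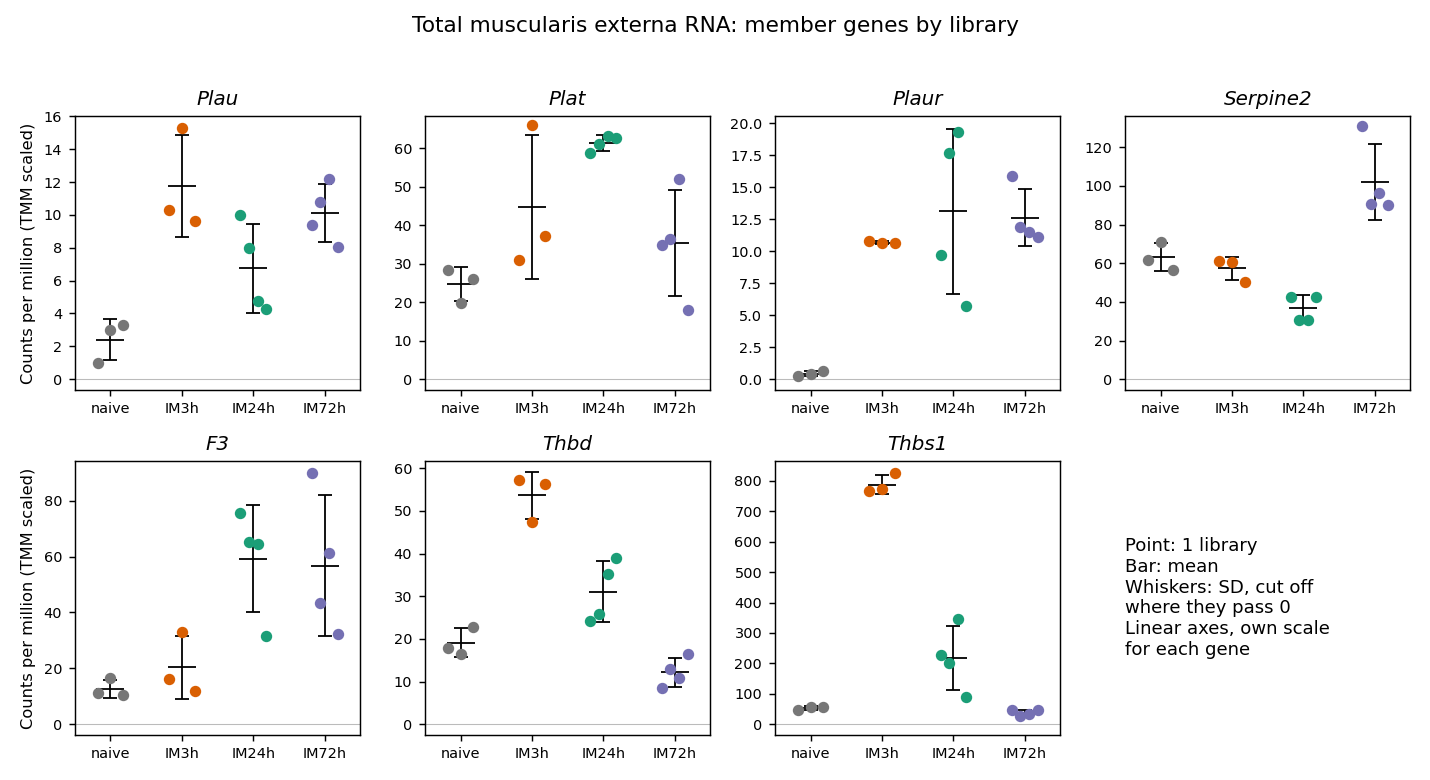
TMM-scaled CPM (y axis, linear, a scale of its own for each gene) of the 7 genes in each total *ME* library, by group; points are libraries, bars means and whiskers SD, cut off at 0. *Thbs1* peaks at IM3h with 766 to 824 CPM, *F3* lies above its naïve range in every IM24h and IM72h library, and *Plaur* stays above its naïve range of 0.242 to 0.605 CPM in every operated library.

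Whether the glial change differed from the change of the whole tissue was tested as an interaction of fraction and time, in one fit for each time point. All *RiboTag* libraries came from the *Sox10* cross, while *ME* was from the *Gfap* cross at naïve and IM3h and from the *Sox10* cross later. Fraction and line therefore cannot be told apart in the IM3h interaction, and in the later ones the *ME* change holds a change of line. At IM3h, 0 of the 7 genes differed by edgeR and 0 by DESeq2, 2 had an unadjusted p under 0.05, and 1.66% of 17617 genes were called. The 2 were *Serpine2*, whose log2 change was larger in *RiboTag* by 0.89 ± 0.27 (SE, edgeR adjusted p = 0.111), and *Thbs1*, whose change was smaller in *RiboTag* (difference -0.92 ± 0.41, SE, edgeR adjusted p = 0.311). Without IM3h *RiboTag* library 4 the *Serpine2* difference passed (0.96, edgeR adjusted p = 0.0451). At IM24h, 0 of the 7 differed by edgeR, 0 by DESeq2 and 0 at an unadjusted p under 0.05, where 0.537% of 17508 genes were called.

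At IM72h, 2 of the 7 were called, *F3* and *Thbd*, both with a lower change in *RiboTag* than in *ME*, where 23.3% of 16527 genes were called. The difference was -5.34 ± 1.53 for *F3* (log2, SE, edgeR adjusted p = 0.0208) and -4.18 ± 1.2 for *Thbd* (log2, SE, edgeR adjusted p = 0.0212). The median difference of all genes in this fit was -0.98, and the IM72h *RiboTag* libraries held 2 counts of *F3* and 1 count of *Thbd* in all, so the fitted sizes depend on the prior count. The *F3* call was lost without naïve *RiboTag* library 3 (-3.64, edgeR adjusted p = 0.0938), naïve *ME* library 1 (-5.26, edgeR adjusted p = 0.0599) or naïve *ME* library 3 (-5.25, edgeR adjusted p = 0.0601). The *Thbd* call was lost without naïve *RiboTag* library 2 (-3.56, edgeR adjusted p = 0.0535) or naïve *ME* library 1 or 2 (-4.14 and -4.09, edgeR adjusted p = 0.0585 and 0.0592). Without IM72h *RiboTag* library 2, which held all those counts, the fitted differences were -9.59 for *F3* and -7.52 for *Thbd*, values that depend on the prior count since 0 counts were left. In the same fit the difference of *Plaur* went from -1.3 to -10.62 without IM72h *RiboTag* library 2 (edgeR adjusted p = 0.00975), and that of *Plat* from -0.9 to -6.32 without IM72h *RiboTag* library 1 (edgeR adjusted p = 0.0023). Both values depend on the prior count too, since 0 counts of *Plaur* and 1 count of *Plat* were left in that group. The difference of *Serpine2* was called with no scaling (-4.34, edgeR adjusted p = 0.0247), against -1.41 with TMM.

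Between naïve fractions, 6 of the 7 genes were tested and 2 were called, where 25.9% of 14690 genes were called. *Serpine2* was 1.84-fold higher in naïve *RiboTag* than in naïve *ME* RNA (log2 fold change 0.88 ± 0.17, SE, edgeR adjusted p = 0.00652), a call lost with no scaling (0.81, edgeR adjusted p = 0.13). *Thbd* was 3.95-fold lower (log2 fold change -1.98 ± 0.46, SE, edgeR adjusted p = 0.0135). The *Thbd* call was lost without naïve *ME* library 1 or 3 (-2.02 and -1.82, edgeR adjusted p = 0.0506 and 0.0742), with plain library totals (-1.23, edgeR adjusted p = 0.0889) and with 3 reference genes (-1.8, edgeR adjusted p = 0.0661), and without naïve *RiboTag* library 2 it was larger (-2.61). *F3*, at -2.14 ± 0.81 on the log2 scale (SE, edgeR adjusted p = 0.0838), was not called. It passed with DESeq2 (-2.15, adjusted p = 0.0312), with no scaling (-2.18, edgeR adjusted p = 0.033) and without naïve *RiboTag* library 3 (-3.86, edgeR adjusted p = 0.00766), and was -1.38 with plain totals (edgeR adjusted p = 0.212). *Plat* and *Plau* also passed without that library (-1.41 and -7.05, edgeR adjusted p = 0.0221 and 0.0307). The *Plau* value depends on the prior count, since 0 naïve *RiboTag* counts were left. The naïve fractions come from different mouse lines, so fraction and line cannot be told apart here.

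**Figure D4:**
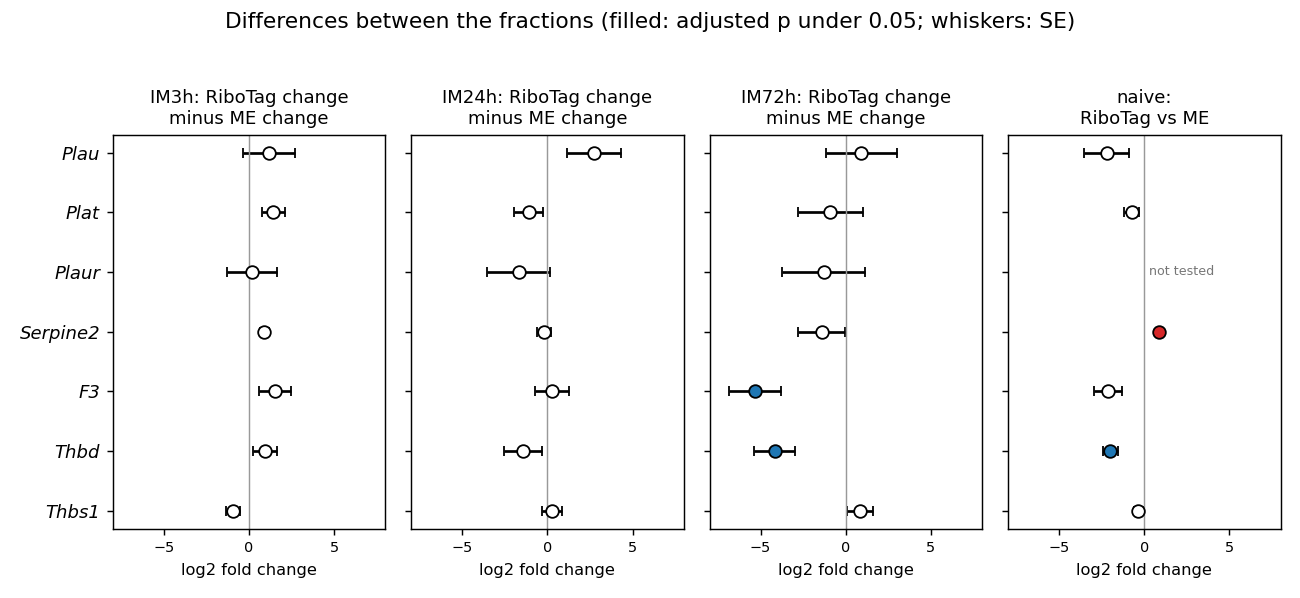
Difference between the fractions for each gene (x axis, log2, edgeR), as the *RiboTag* change minus the *ME* change at IM3h, IM24h and IM72h and as naïve *RiboTag* against naïve *ME*; whiskers are the SE and filled points have an adjusted p under 0.05. The only filled points are *F3* and *Thbd* at IM72h, at -5.34 and -4.18, and *Serpine2* and *Thbd* between the naïve fractions, at 0.88 and -1.98.

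The other genes of these systems were counted in 4 lists of 50 genes in all, to be read against the shares of all genes called, 13.3% at IM3h in *RiboTag* and 32.7%, 29% and 57.5% at IM3h, IM24h and IM72h in *ME*. Of 13 other genes of the plasminogen system, 6 were tested at IM3h in *RiboTag* and 2 rose, the annexin A2 gene *Anxa2*, whose protein binds plasminogen and its tissue-type activator on cell surfaces, and its partner *S100a10*. *Anxa2* was at 124 to 172 CPM in naïve and 253 to 488 CPM in IM3h *RiboTag* libraries (log2 fold change 1.52 ± 0.28, SE, edgeR adjusted p = 0.0046), and *S100a10* at 47.6 to 86.4 and 213 to 267 CPM (log2 fold change 1.91 ± 0.27, SE, edgeR adjusted p = 0.000847). In *ME* the same list had 2 of 7 tested higher at IM3h, again *Anxa2* and *S100a10* (log2 fold change 0.96 and 1.3). At IM24h it had 5 of 8 higher and 1 lower, and at IM72h 2 of 7 higher and 2 lower, a share near that of all genes. *Anxa2* was at 408 to 524 CPM at IM24h and at 435 to 515 CPM at IM72h in *ME*, against 89.8 to 117 CPM in naïve. *Serpinb2*, which encodes a further inhibitor of urokinase, had 0 counts in naïve *ME* and was at 0.848 to 16.8 CPM at IM24h.

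Of 25 other coagulation factors and their inhibitors, 11 were tested at IM3h in *RiboTag*, where *Pros1*, the anticoagulant cofactor protein S, rose (log2 fold change 1.34 ± 0.28, SE, edgeR adjusted p = 0.00859), and *Gas6*, its relative, fell by 1.53 ± 0.33 (log2, SE, edgeR adjusted p = 0.00959). In *ME* 3 of 10 tested rose and 3 fell at IM3h, 6 of 14 rose and 1 fell at IM24h, and 6 of 12 rose and 1 fell at IM72h, where the share called was again near that of all genes. *Procr*, the endothelial protein C receptor that works beside thrombomodulin, went from 0.967 to 2.15 CPM in naïve *ME* to 10.6 to 17.5 CPM at IM3h (log2 fold change 3.4 ± 0.36, SE, edgeR adjusted p = 6.75e-05). *F10*, which encodes factor X, a substrate of tissue factor with factor VII, went from 0.431 to 0.484 CPM in naïve *ME* to 9.23 to 28.3 CPM at IM24h (log2 fold change 5.17 ± 0.51, SE, edgeR adjusted p = 0.000149). *F7* had 0 counts in naïve and IM3h *ME* libraries and was at 3.01 to 7.31 CPM at IM24h and 1.63 to 3.46 CPM at IM72h. *Tfpi*, the tissue factor pathway inhibitor, was the 1 gene of the list called lower at IM72h in *ME* (log2 fold change -1.33 ± 0.2, SE, edgeR adjusted p = 0.000228).

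Of 4 protease-activated receptors, through which thrombin and other proteases act on cells, 3 were tested at IM3h in *RiboTag* and 0 called by edgeR. In *ME*, 1 of 2 tested rose at each time, the thrombin receptor gene *F2r*, from 58.2 to 69.3 CPM in naïve to 110 to 162 CPM at IM72h (log2 fold change 1.15 ± 0.16, SE, edgeR adjusted p = 0.000105). Of 8 other thrombospondins and their receptors, 7 were tested at IM3h in *RiboTag* and 0 called by edgeR. In *ME* 2 of 7 rose at IM3h, 2 rose and 1 fell at IM24h, and 3 rose and 2 fell at IM72h. *Sdc1*, a heparan sulfate proteoglycan, was called higher in *ME* at all 3 times (log2 fold change 1.1, 1.89 and 1.72), and *Cd36*, a thrombospondin-1 receptor, fell by 1.59 ± 0.14 on the log2 scale at IM72h (SE, edgeR adjusted p = 5.17e-06). In *RiboTag* at IM72h, where 16.1% of all genes were called, 1 of 6 plasminogen and 2 of 8 coagulation genes tested were lower. Of 7 thrombospondin genes and receptors, 1 was higher and 1 lower, and the 1 protease-activated receptor tested was not called. At IM24h in *RiboTag*, 0 genes of each list were called, where 0.497% of all genes were.

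**Figure D5:**
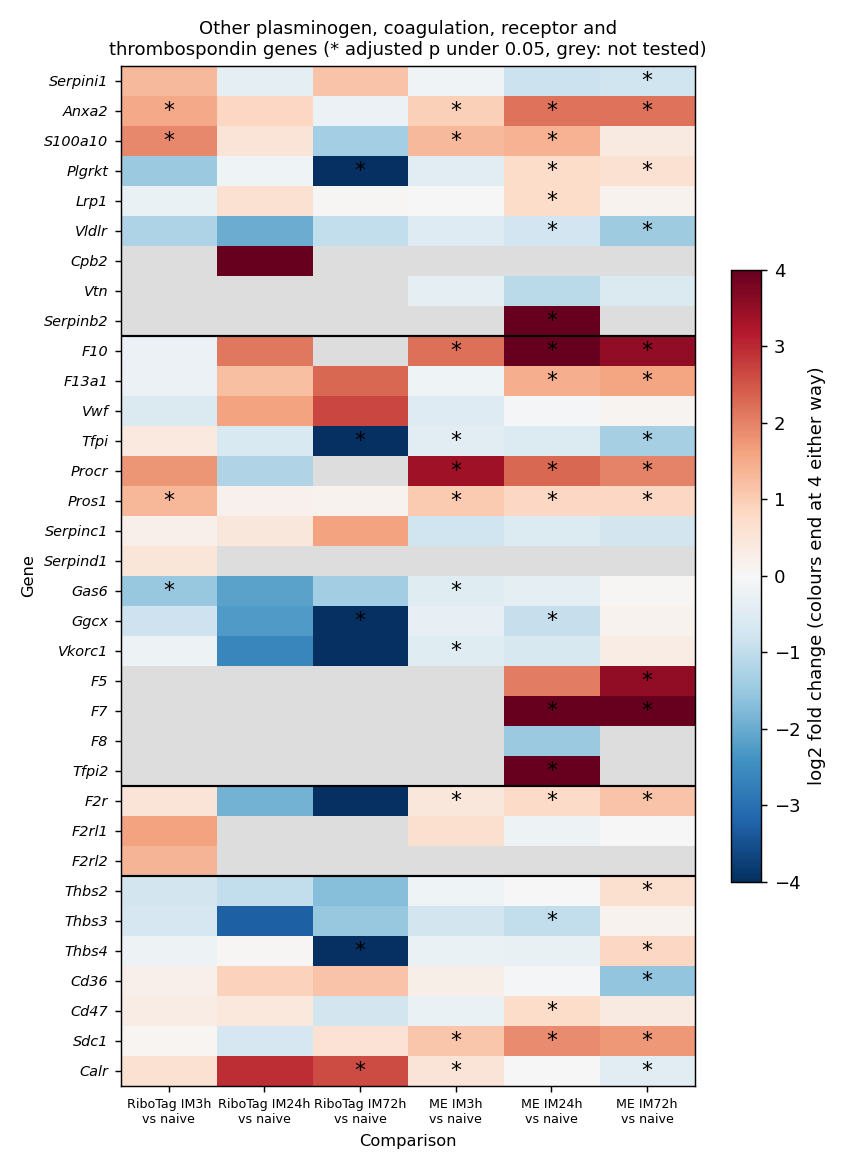
Log2 fold change against naïve (colour, ending at 4 either way) of the listed genes tested in at least 1 of the 6 comparisons (rows, in the order of the 4 lists, parted by lines), with a star for an adjusted p under 0.05 and grey for not tested. *Anxa2*, *Procr*, *Pros1*, *F2r*, *F10* and *Sdc1* have a star in all 3 *ME* columns, and the *RiboTag* IM24h column has none.

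Across the 6 comparisons with naïve, the genes whose log2 fold changes lay nearest to each member, by root mean square difference over the comparisons in which the member was tested, were *Ifit3*, *Cnppd1* and *Erbb2* for *Serpine2* (0.24 to 0.3, 6 comparisons, 12314 genes ranked) and *Bahd1*, *Gtf2f2* and *Zc3hav1* for *Plat* (0.29 to 0.34, 6 comparisons). For *F3* they were *Slfn9*, *Fam111a* and *Rab7b* (0.35 to 0.37, 5 comparisons, 13389 genes ranked). *Plau* and *Plaur*, over 5 comparisons, had *Slfn2*, *Mthfd2* and *Gm20657* (0.66 to 0.72) and *Hmox1*, *H19* and *Junb* (0.81 to 1.1). *Thbd* had *Slc2a1*, *E2f5* and *B4galt5* (0.5 to 0.53), and *Thbs1* had *Txnrd1*, *Gadd45b* and *Has1* (0.53 to 0.64), both over 6 comparisons. The comparisons within a fraction share their naïve libraries.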

How the data were processed

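RNA was sequenced as QuantSeq 3′ end libraries. According to the study's methods, the authors trimmed the single-end reads, mapped them to the mm10 genome with STAR, and used Partek Flow with an Ensembl annotation to estimate transcript abundance. The deposited values were estimated counts per transcript (*RiboTag*, 3 tables that share their naïve libraries) or per gene (*ME*), not scaled for library size, with only features of at least 10 counts in total listed. Of the *ME* values, 29.3% were not whole numbers. The deposited tables of the authors' own comparisons hold p-values, fold changes and group means and were not used.

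Transcript counts were summed per gene symbol and rounded to whole numbers. Libraries carry no sample name in the tables, so they were assigned to groups by the tables' own time point entry, and library numbers here only name them in table order. No 2 libraries were identical. Each comparison was fitted with edgeR 4.0.16 in R 4.3.3 (TMM scaling, its filter on low counts, quasi-likelihood test, two-sided) on the groups compared, with Benjamini-Hochberg adjustment over all genes tested, and the interactions of fraction and time used both fractions' naïve and operated libraries. SEs were derived from the log2 fold change and its F statistic. A gene was called at an adjusted p under 0.05. DESeq2 1.42.0, other scalings (plain totals, none, the reference genes *Actb*, *Hsp90ab1* and *Rplp1*), no filter, all groups in 1 fit, the *ME* transcript table, a threshold after the study's (unadjusted p under 0.05 and a change over 2-fold) and leaving out each library were alternatives. The fitting code was tested on simulated data.

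The 7 genes were named in every comparison, other pathway genes and cell markers from lists, with examples among those called, and likeness by the root mean square difference of log2 fold changes. The members and lists were chosen with earlier results of these data known. One gene of the plasminogen list and 1 of the glial marker list are not reported here, and the glial sums leave the latter out. Intervals from counts cover counting error only, since the sources used here name no molecular identifiers. Reads were counted for annotated transcripts, and whether strand was used is not given in the sources used here.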

Additional observations from a re-analysis of the deposited data

Results flagged for a closer look

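Of 35 pairs of a member and a group of 4 libraries, 6 held 1 library far from the others by Dixon's ratio, which chance gives in about 1 of 20 groups of normally spread values. *Serpine2* in *ME* at IM72h was highest at 131 CPM in library 1, against 90.0 to 96.4 CPM in the other 3. The other 5 were in *RiboTag* at IM72h, the group with 663808 to 1619377 counts outside AY036118 per library. There, *Plau* reached 12.9 CPM in library 2, against 0 to 0.479 CPM in the others. *Plaur* was at 35.0 CPM in library 2 and at 0 in the others. *Plat* was at 38.8 CPM in library 1, against 0 to 0.971 CPM. *F3* and *Thbd* were at 0.887 and 0.443 CPM in library 2, which stand for 2 counts and 1 count, and at 0 in the others. With 1 count in all the ratio can take no other value, and with 2 counts it depends only on whether both fell in 1 library, so the chance rate does not apply to *Thbd* or *F3*. Nor does it hold for *Plau*, *Plaur* and *Plat*, which had 0 or 1 counts in each of the other IM72h *RiboTag* libraries.

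The change from naïve to IM72h differed between *RiboTag* and *ME* RNA for *F3* (-5.34 on the log2 scale, edgeR adjusted p = 0.0208) and *Thbd* (-4.18, edgeR adjusted p = 0.0212), by the test of the interaction itself. The naïve *ME* libraries came from another mouse line than the IM72h *ME* and all *RiboTag* libraries, so the *ME* change holds a change of line. In the same test 3488 genes had a lower change in *RiboTag* and 355 a higher one.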

How the results depend on the processing

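Of 92 results for a single gene over 14 comparisons, 35 were called, and 14 of these kept the call in all alternatives run. 4 called results changed sign in some alternative. The cause of the changes given here was not tested. No paired analysis was possible because the libraries in the tables carry no replicate numbers. At IM72h in *RiboTag*, *Plau*, *Plaur* and *F3* fell under the count filter and *Thbd* had 1 count. Those libraries held 663808 to 1619377 counts outside AY036118, *Plau* and *Plaur* had nearly all their counts in library 2 (29 and 79), and *Thbs1* had 36 to 161 counts per library. The count ratios of *F3* and *Thbd* without single libraries were chosen after seeing the data. Another scaling moved the median over all genes tested, in log2 fold change, from -0.4 with TMM to -2.13 with plain totals, -2.6 with no scaling and -2.07 with reference genes in *RiboTag* at IM72h against naïve, and from 0.02 to 0.62, 0.98 and -0.58 in *ME* at IM72h. In *ME* at IM24h it went from 0.02 to 0.66, 0.53 and -0.35, in *RiboTag* at IM24h from -0.11 to -0.96, -0.98 and -1.51, and in the IM72h interaction from -0.98 to -3.06, -3.88 and -1.8.

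Counts of called members moved as follows. At IM3h against naïve in *RiboTag*, 4 became 2 with reference genes and 0 with all groups in 1 fit, and ran from 2 to 5 without single libraries, the 2 being without naïve library 1. At IM24h against naïve in *RiboTag*, 0 became 3 under the study's threshold, 1 with DESeq2 and 1 without the filter, and ran from 0 to 1 without single libraries. At IM72h against naïve in *RiboTag*, 1 became 0 with DESeq2, 0 without the filter and 0 with all groups in 1 fit. At IM72h against naïve in *ME*, 6 became 3 under the study's threshold. From IM3h to IM24h in *RiboTag*, 1 became 3 under the study's threshold, 2 with DESeq2, and 0 with plain totals, with reference genes and with all groups in 1 fit, and ran from 0 to 1 without single libraries. From IM24h to IM72h in *RiboTag*, 0 became 2 under the study's threshold. From IM3h to IM24h in *ME*, 4 became 2 under the study's threshold and 2 with reference genes, and ran from 1 to 4 without single libraries, the 1 being without IM3h library 1 and a 2 without IM3h library 3. In the interactions, single libraries moved the IM3h count from 0 to 1 (without *RiboTag* IM3h library 4) and the IM72h count over 0 to 3, the 0 being without naïve *ME* library 1. Between naïve fractions, 2 became 1 with plain totals and 1 with reference genes, and ran from 1 to 5 without single libraries, the 5 being without naïve *RiboTag* library 3.

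The log2 fold changes below changed sign. With plain library totals they became -0.9 for *Plat* in *RiboTag* at IM24h and -1.17 for *Thbs1* at IM72h against naïve, 0.1 for *Thbs1* in *ME* at IM72h, -0.04 for *Plau* and -0.73 for *F3* in *RiboTag* from IM3h to IM24h, -0.2 for *Serpine2* in *RiboTag* from IM24h to IM72h, and 0.19 for *Serpine2*, 0.03 for *Plau* and 0.06 for *Thbd* in *ME* from IM3h to IM24h. In the interactions they became -1.59 for *F3* and -1.24 for *Thbs1* at IM24h and -1.13 for *Plau* and -1.25 for *Thbs1* at IM72h, and between naïve fractions 0.39 for *Thbs1*. With no scaling they became -0.97 for *Plat* at IM24h and -1.66 for *Thbs1* at IM72h in *RiboTag* against naïve, 0.27 for *Thbd* and 0.46 for *Thbs1* in *ME* at IM72h, -0.5 for *Plau* and -1.36 for *F3* in *RiboTag* from IM3h to IM24h, -0.79 for *Serpine2* in *RiboTag* from IM24h to IM72h, and 0.31 for *Plaur* and 0.27 for *F3* in *ME* from IM24h to IM72h. In the interactions they became -1.66 for *F3* and -1.17 for *Thbs1* at IM24h and -1.9 for *Plau* and -2.13 for *Thbs1* at IM72h. With reference genes they became -1.5 for *Plat* at IM24h and -1.03 for *Thbs1* at IM72h in *RiboTag* against naïve, -0.16 for *Plat* in *ME* at IM72h, -0.63 for *Plau* and -1.31 for *F3* in *RiboTag* from IM3h to IM24h, and in the interactions -1.19 for *F3* and -0.7 for *Thbs1* at IM24h and -0.06 for *Plau* at IM72h. With the *ME* transcript table the IM3h interaction of *Plaur* became -0.16.

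Without single libraries, results that crossed 0 ran from -0.69 to 0.87 for *Plat* at IM24h and from -5.28 to 0.64 for *Plat* at IM72h in *RiboTag* against naïve, and from -0.2 to 0.02 for *Serpine2* in *ME* at IM3h. They ran from -0.24 to 0.72 for *F3* in *RiboTag* from IM3h to IM24h, from -0.79 to 1.09 for *Serpine2* and -5.37 to 0.53 for *Plat* in *RiboTag* from IM24h to IM72h, and from -0.34 to 0.12 for *Plaur* and -0.44 to 0.09 for *F3* in *ME* from IM24h to IM72h. In the interactions they ran from -0.41 to 3.5 for *Plaur* at IM3h, from -3.08 to 1.25 for *Plaur*, -0.44 to 1.99 for *F3* and -0.11 to 0.58 for *Thbs1* at IM24h, and from -3.26 to 5.82 for *Plau* and -10.62 to 2.05 for *Plaur* at IM72h. None of these crossing results was called with all libraries.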

Other observations

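Other cell markers also moved between the groups in which the 7 genes were compared. In *RiboTag* at naïve, IM3h, IM24h and IM72h in turn, the fibroblast markers summed to 447 to 544, 187 to 289, 146 to 401 and 220 to 1010 CPM, and the smooth muscle markers to 4330 to 6600, 1680 to 3950, 819 to 2150 and 1800 to 6680 CPM. The mesothelial markers *Msln*, *Upk3b*, *Lrrn4* and *Wt1* summed in *ME* to 86.7 to 126, 1.77 to 11.7, 6.5 to 73.8 and 30.2 to 71.4 CPM, so that every IM3h library lay below every naïve one. The neuronal markers summed to 310 to 322, 249 to 279, 184 to 259 and 160 to 191 CPM in *ME*, and the markers of interstitial cells of Cajal to 366 to 372, 256 to 268, 232 to 381 and 157 to 182 CPM. The epithelial markers ranged from 26.9 to 61.4 CPM at IM24h to 86.9 to 498 CPM at IM3h in *ME*. Their part in the levels of the 7 genes was not tested.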
